A study of Rattus norvegicus with 6 samples.

Results

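The interleukin-1 (IL-1) family was followed across cell classes as 9 genes, chosen by symbol: Il1b, Il1a, Il1rn, Il18, Il33, Il1r1, Il1rap, Il1r2 and Il1rl1. All 9 were found among the 25399 genes that the files list, and all 9 had UMIs (unique molecular identifiers, 1 per captured transcript) in the kept cells. Levels are given as CPM, the UMIs of a gene per 1000000 UMIs of the same class and library. Single cells of Sprague Dawley rat brain were profiled by their transcripts' 3′ ends, in 3 libraries from rats with pontine infarction and 3 from sham rats. Every label gives postnatal day 21, and the title places the study in the pons. The labels do not say whether the day is that of surgery or of sampling, and the time between infarction and sampling is not given in the sources used here. No allele, transgene or drug is named for either group, and the labels report infarction in 3 rats without stating how animals map to libraries. The p-values below therefore measure the spread between these libraries, which may be technical.

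IL-1 alpha and IL-1 beta are agonists that bind the signalling receptor IL-1R1, which then recruits the accessory chain encoded by Il1rap and starts NF-kappa-B signalling. The antagonist encoded by Il1rn occupies IL-1R1 without recruiting that chain, and the decoy receptor encoded by Il1r2 binds agonist without signalling. IL-18 is a related cytokine matured by caspase-1, and IL-33 is a nuclear alarmin that acts through the receptor encoded by Il1rl1, also called ST2; in the mouse central nervous system IL-33 is known mainly from oligodendrocytes and astrocytes.

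The windows before the transcription starts are shown for 4 of the ligand genes: the agonists Il1b and Il1a, their antagonist Il1rn, and Il33, whose direction differed between classes. They are 250 bases each from RefSeq on build GRCr8, written 5′ to 3′ on the gene's strand and ending at the base before the start. RefSeq windows were found for 8 of the 9 members, and 2 starts were listed for Il33. Capitals mark matches to a kappa-B motif (GGG, any 2 bases, then TTTCC), an AP-1 motif (TGANTCA), a PU.1 motif (GAGGAAG) or a SOX motif (ACAAAG), searched on both strands, or to a TATA box (TATAAA), searched on the gene's strand.
Il1b, chr3:137036582-137036831, minus strand: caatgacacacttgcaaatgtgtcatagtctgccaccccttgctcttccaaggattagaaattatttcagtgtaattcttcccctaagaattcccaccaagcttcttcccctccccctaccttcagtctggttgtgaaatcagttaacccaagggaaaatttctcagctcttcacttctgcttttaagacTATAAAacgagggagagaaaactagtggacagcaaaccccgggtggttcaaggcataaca
Il1a, chr3:136990018-136990267, minus strand: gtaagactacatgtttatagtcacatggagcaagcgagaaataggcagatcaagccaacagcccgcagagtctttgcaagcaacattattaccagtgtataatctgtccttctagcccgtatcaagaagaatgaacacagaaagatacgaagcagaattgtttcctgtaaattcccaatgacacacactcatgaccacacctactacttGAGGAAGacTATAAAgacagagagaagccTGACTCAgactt
Il1rn, chr3:27520072-27520321, plus strand: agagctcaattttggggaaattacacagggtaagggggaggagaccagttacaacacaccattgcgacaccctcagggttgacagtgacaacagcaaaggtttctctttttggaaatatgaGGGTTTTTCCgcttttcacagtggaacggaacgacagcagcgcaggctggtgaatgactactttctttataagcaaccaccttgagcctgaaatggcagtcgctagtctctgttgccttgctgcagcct
Il33, first start, chr1:237115323-237115572, plus strand: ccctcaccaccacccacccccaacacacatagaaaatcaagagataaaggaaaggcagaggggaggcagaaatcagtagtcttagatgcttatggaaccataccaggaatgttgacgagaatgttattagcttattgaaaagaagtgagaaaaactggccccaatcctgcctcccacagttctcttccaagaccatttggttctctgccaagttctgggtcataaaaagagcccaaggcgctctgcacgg
Il33, second start, chr1:237134696-237134945, plus strand: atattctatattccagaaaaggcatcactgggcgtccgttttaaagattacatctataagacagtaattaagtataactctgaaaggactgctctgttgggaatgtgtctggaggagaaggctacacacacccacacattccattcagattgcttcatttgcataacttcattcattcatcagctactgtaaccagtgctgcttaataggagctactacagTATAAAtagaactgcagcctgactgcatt
The Il1rn window held the only kappa-B match among the members, GGGTTTTTCC, starting 129 bases before the start. Of 33469 rat windows of this length, 1.30% held such a match. The Il1a window held an AP-1 match starting 12 bases and a PU.1 match starting 41 bases before the start, letters found in 6.34% and 10.2% of windows. TATA boxes, present in 8.06% of windows, began 60 bases before the start in Il1b, 32 in Il1a and 29 at the second start of Il33. The SOX letters, in 16.3% of windows, were in none of the members' windows. A match is a description of these letters and not evidence of binding. In the RefSeq order of protein-coding genes, Il1a and Il1b are neighbours on chromosome 3, which also holds Il1rn, while Il1r1, Il1r2 and Il1rl1 all lie on chromosome 9.

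After filtering, 37853 of 44011 barcodes remained, 5873 to 7255 per infarction library and 5914 to 6543 per sham library, with medians of 7774 to 9562 and 7287 to 7717 UMIs per cell. Cell classes were named from marker genes and are called X-like. The mix of cells differed between groups. Neutrophil-like cells averaged 23.6% of infarction and 0.366% of sham cells. Phagocytic macrophage-like cells averaged 15.8% of infarction cells and had no cell in sham. Smooth muscle-like cells averaged 0.0056% of infarction and 39.4% of sham cells. Between 8 and 21 barcodes were shared by each pair of libraries. Sums over all cells are given first. In them a change within cells and a change in the mix of cells cannot be told apart, and fewer cells of a type cannot be told from less RNA per cell.

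Summed over all cells, 6 of the 9 members rose after infarction, 1 fell and 2 did not pass the test (edgeR's quasi-likelihood test, adjusted p under 0.05 over 14613 genes). Of all genes tested, 33.2% were called higher and 38.1% lower, so calls were common. The median log2 fold change of the 9 members was 2.96, beside -0.13 for all genes tested. The antagonist Il1rn had 342, 212 and 158 CPM in infarction 1, 2 and 3, against 0.773, 1.48 and 1.28 in sham 1, 2 and 3. The groups were far apart, and the log2 fold change was 8.13 ± 0.48 (SE, adjusted p = 3.87e-05). The decoy receptor Il1r2 had 259, 114 and 93.4 CPM after infarction and 1.24, 2.05 and 1.59 in sham (7.06 ± 0.57, adjusted p = 0.000113).

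The agonist Il1b had 785, 425 and 352 CPM after infarction and 15.5, 19.04 and 60.8 in sham (log2 fold change 4.53 ± 0.69, adjusted p = 0.00157). Its lowest infarction library lay above its highest sham library, sham 3. Il1a was scarcer, with 8.39, 3.31 and 3.41 CPM after infarction and 0.464, 0.557 and 1.71 in sham (2.96, adjusted p = 0.00837). Il18 reached 104, 146 and 120 CPM after infarction, against 8.58, 21.3 and 32.0 in sham (3.05, adjusted p = 0.00164). The accessory chain gene Il1rap rose too, at low levels, with a log2 fold change of 2.12 (adjusted p = 0.00706).

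The signalling receptor gene Il1r1 was the member that fell. It had 0.525, 0.466 and 0.575 CPM after infarction and 2.63, 2.51 and 1.96 in sham, groups that did not overlap (-1.71 ± 0.24, adjusted p = 0.000954). Il33 had 54.3, 95.6 and 39.0 CPM after infarction and 25.1, 54.9 and 108 in sham; the groups overlapped and the difference did not pass the test (0.49, adjusted p = 0.471). Its receptor gene Il1rl1 was near the limit of detection, with 83 UMIs over the infarction libraries and 102 over the sham libraries (0.03, adjusted p = 0.970); with smooth muscle-like, pericyte-like and choroid plexus-like cells left out it fell (-1.58, adjusted p = 0.0180). For Il33, the all-cell value covered opposite changes in single classes.

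**Figure D1:**
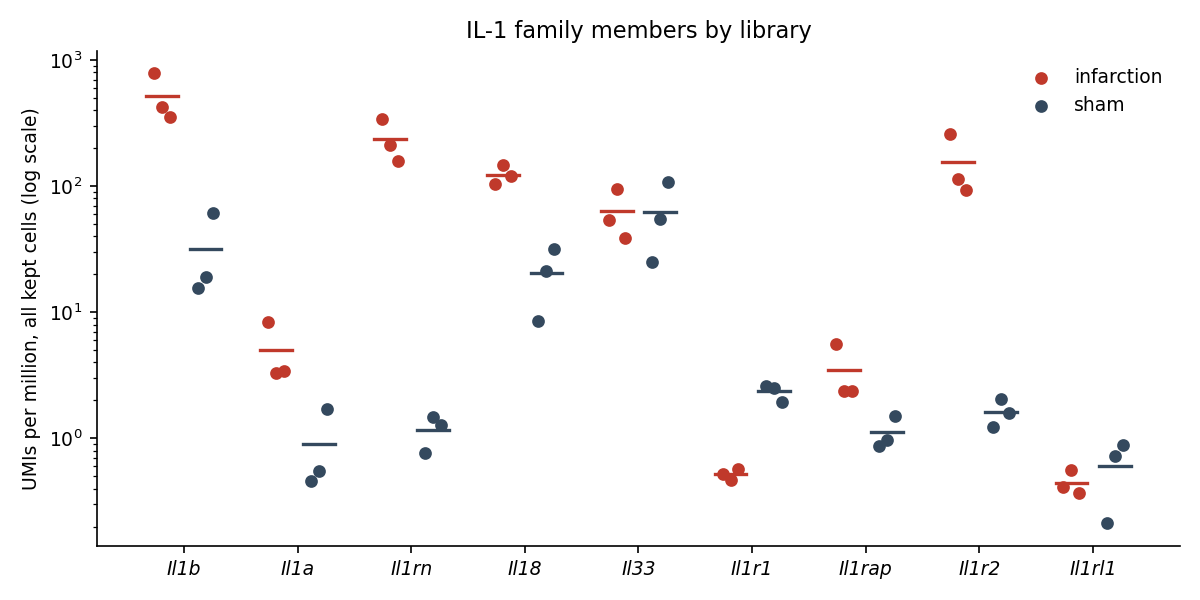
CPM of each IL-1 family member over all kept cells, on a log axis; points are libraries (infarction left in red, sham right in blue, 3 each) and lines are group means. Il1b, Il1a, Il1rn, Il18, Il1rap and Il1r2 lie higher after infarction, Il1r1 lies lower, and the groups overlap for Il33 and Il1rl1.

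The cells that held the transcripts differed by member. After infarction, neutrophil-like cells held 44.1% of Il1b UMIs, 38.5% of Il1rn UMIs, 53.9% of Il1rap UMIs and 91.8% of Il1r2 UMIs (means of 3 libraries), while they made up 23.6% of cells. In sham, microglia-like cells, 17.3% of cells, held 66.5% of Il1b, 96.8% of Il1a, 77.8% of Il18 and 80.0% of Il33 UMIs. Il18 after infarction was spread over microglia-like cells (28.7%), phagocytic macrophage-like cells (26.6%) and an unnamed cluster led by the MHC class II genes RT1-Ba, RT1-Bb and RT1-Db1 with Ccl17 and Clec9a (20.9%). Il33 after infarction came mainly from oligodendrocyte precursor-like cells, which held 58.0% of its UMIs and were 0.944% of cells. These shares follow the sizes of the classes as well as their levels.

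**Figure D2:**
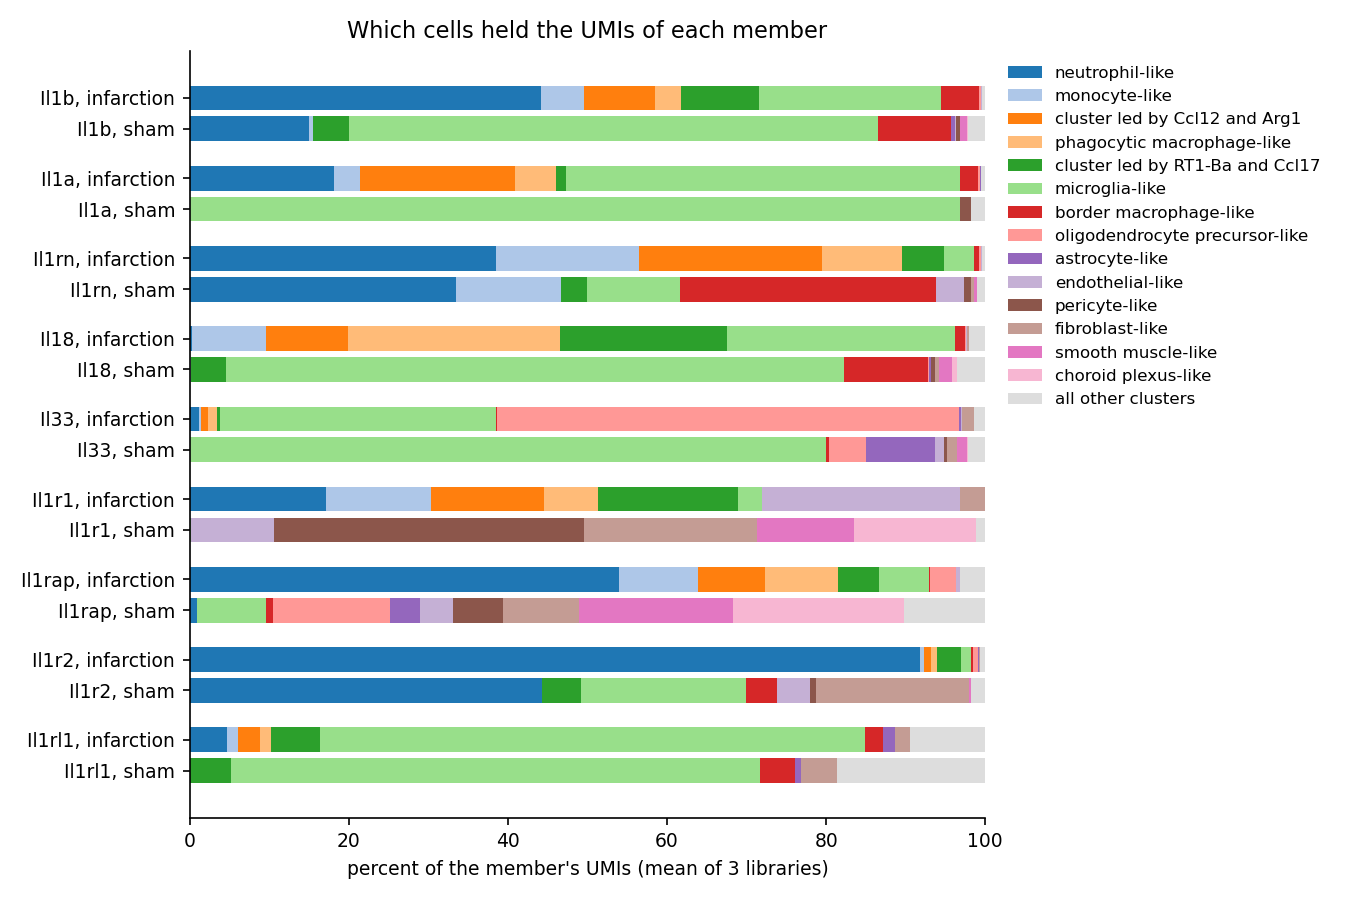
Percent of each member's UMIs held by each cell class or unnamed cluster, as means of 3 libraries, with infarction above sham for each member. Neutrophil-like cells (dark blue) lead for Il1b, Il1rn, Il1rap and Il1r2 after infarction, and oligodendrocyte precursor-like cells (salmon) lead for Il33 after infarction.

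Among the agonists, Il1b was highest in neutrophil-like cells in both groups. They held 4849, 4576 and 5381 CPM after infarction, against 2112, 4326 and 1056 in sham. No test was run there, since sham libraries held 13, 44 and 12 such cells with 60, 429 and 48 Il1b UMIs. These sham cells also differed in a defining marker: S100a9, a calcium-binding alarmin of neutrophils, had 14457, 15433 and 20500 CPM in infarction and 132880, 75729 and 166351 in sham neutrophil-like cells.

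Border macrophage-like cells, the resident macrophages of vessels and meninges, came next after infarction. Their Il1b was 2203, 2151 and 3132 CPM in infarction libraries and 113, 96.8 and 395 in sham libraries, with no overlap (log2 fold change 3.69, adjusted p = 0.0242). After thinning every cell to 2000 UMIs, 81.5% ± 7.75 of these cells held an Il1b UMI after infarction and 10.8% ± 3.41 in sham (SD, n = 3 each; two-sided exact permutation p = 0.1, the smallest 3 against 3 libraries allow, adjusted p = 0.27 over 54 comparisons). In T or NK-like cells, which should lack Il1b, the shares at the same depth were 5.49% and 0.238%, with median depths before thinning of 5055 to 5479 and 4216 to 5849 UMIs. The Il1b call in border macrophage-like cells was lost when any of 5 libraries was left out: the adjusted p was 0.0680, 0.0750 and 0.0651 without infarction 1, 2 and 3, and 0.0752 and 0.0577 without sham 1 and 2. The log2 fold change stayed between 3.37 and 4.62 over all such fits.

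Microglia-like cells had 787, 471 and 523 Il1b CPM after infarction and 278, 86.9 and 254 in sham. The groups did not overlap, but the difference missed the threshold (log2 fold change 1.52, adjusted p = 0.0646). Different clusters made up this class in the 2 groups. The cluster led by Tmem119 and P2ry12 held 4.90% of infarction and 72.1% of sham microglia-like cells, while a cluster led by Ccl4 held 37.5% and 3.15% and a cycling cluster led by Top2a held 20.6% and 0.696%. In sham, 58.6% of microglial Il1b UMIs came from only 104 cells of the Ccl4-led cluster, 86 of them in sham 3. There Il1b was 703 CPM after infarction and 2860 in sham. Without that cluster the microglial log2 fold change was 2.34 (adjusted p = 0.00893), an alternative chosen after seeing the data. In all, the difference passed in 6 of 18 alternatives, among them without sham 2 (1.14, adjusted p = 0.0135) and with DESeq2 (1.54, adjusted p = 0.0102).

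Il1a was at most 24.2 CPM in any infarction library of neutrophil-like cells and 0 in sham ones. Those sham sums held only 28409, 99169 and 45440 UMIs, too few to compare Il1a. In microglia-like cells it had 19.2, 5.18 and 14.2 CPM after infarction and 10.2, 5.88 and 8.64 in sham, overlapping ranges (0.67, adjusted p = 0.330). Only without infarction 2 did it pass (1.07, adjusted p = 0.00380). Border macrophage-like cells held 20 Il1a UMIs after infarction and 0 in sham, at least 8.93-fold higher against the 3 UMIs over the group that a count of 0 allows, for counting error only.

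The antagonist Il1rn rose within both resident macrophage classes tested. In microglia-like cells it had 58.6, 38.4 and 38.4 CPM after infarction and 0.465, 1.68 and 1.41 in sham (log2 fold change 5.01, adjusted p = 2.59e-06). In border macrophage-like cells it had 160, 131 and 102 CPM after infarction and 19.95, 25.7 and 29.4 in sham (2.45, adjusted p = 1.90e-08). Neither pair of groups overlapped, and both calls held in every alternative fitted. In microglia-like cells, 75.1% of infarction Il1rn UMIs came from the Ccl4-led cluster, at 78.9 CPM after infarction and 8.03 in sham (pooled libraries). That cluster held 37.5% of infarction and 3.15% of sham microglia-like cells. The cluster led by Tmem119 and P2ry12 had 12.5 and 0.876 CPM, from 13 and 14 UMIs. A shallow cluster (median 1442 UMIs per cell) had 8.33 and 4.74, from 50 and 5 UMIs. The part of this mix in the size of the microglial change was not tested. Il1rn was also seen after infarction in T or NK-like cells (46.6, 1.48 and 17.4 CPM, 0 in each sham library). Endothelial-like cells had 80.1, 78.9 and 10.0 CPM, against 0, 0 and 10.2 in sham. After thinning to 2000 UMIs, 2.09% of T or NK-like, 5.04% of microglia-like and 18.3% of border macrophage-like infarction cells held an Il1rn UMI. The part of free or admixed neutrophil RNA in these values was not tested. Neutrophil-like cells had 1921, 1939 and 2067 CPM after infarction and 493, 383 and 352 in sham, and monocyte-like cells had 601, 486 and 397 after infarction. Monocyte-like cells in sham numbered 2 to 22 per library, too few to compare.

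Of the members tested in microglia-like cells, 1 of 8 rose (Il1rn), 2 fell (Il33 and Il1rl1) and 5 did not pass, where 32.3% of 10452 genes were called higher and 31.6% lower. In border macrophage-like cells all 3 members tested rose (Il1b, Il1rn and Il18), where 13.1% of 5846 genes were called higher and 11.5% lower. A member was tested only where its counts passed the filter on low values, so these counts do not stand for all 9.

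**Figure D3:**
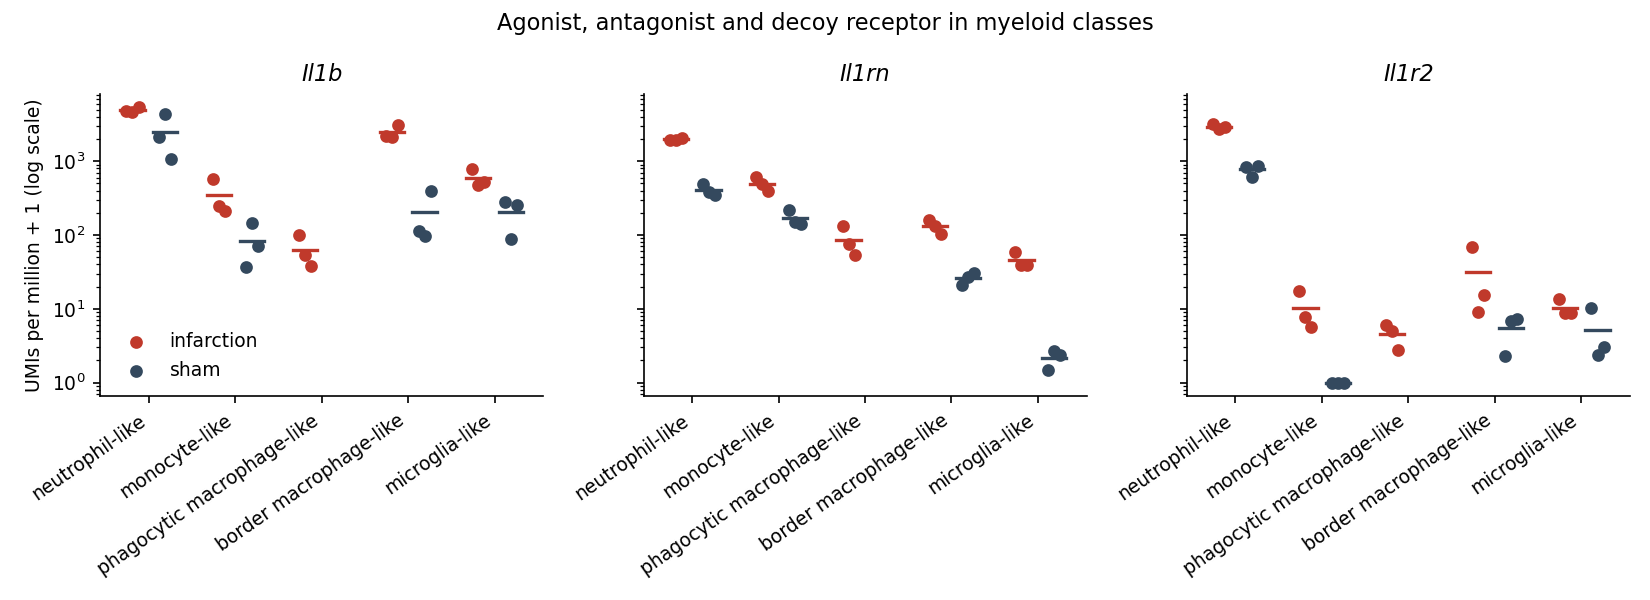
CPM plus 1, on a log axis, of Il1b, Il1rn and Il1r2 in 5 myeloid classes, with points for libraries (infarction left in red, sham right in blue) and lines for means; phagocytic macrophage-like cells had no sham cells. Il1r2 is highest in neutrophil-like cells, and Il1rn in microglia-like cells lies lowest in sham.

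Set against agonist transcripts in the same library, the antagonist differed in opposite directions in the 2 macrophage classes. Over all cells there were 43.6, 50.0 and 44.9 Il1rn UMIs per 100 Il1b UMIs after infarction and 4.99, 7.77 and 2.10 in sham. Microglia-like cells had 7.45, 8.15 and 7.35 per 100 after infarction and 0.167, 1.93 and 0.554 in sham, the last resting on 1 to 14 Il1rn UMIs. Border macrophage-like cells had 7.26, 6.08 and 3.25 per 100 after infarction and 17.6, 26.5 and 7.44 in sham. None of these 3 pairs of groups overlapped. The log2 ratio differed by 3.39 over all cells, 3.35 in microglia-like cells and -1.57 in border macrophage-like cells (two-sided exact permutation p = 0.1 for each, the smallest possible, and adjusted p = 0.2 over 6 comparisons). The ratio compares UMIs of 2 transcripts whose capture may differ, so only its change between groups is read. The border macrophage values include sham 3, whose ratio was close to that of infarction 1. The microglial ratio pools clusters whose mix differed. The Ccl4-led cluster held 1267 Il1rn and 11295 Il1b UMIs after infarction, and 6 and 2136 in sham. The cluster led by Tmem119 and P2ry12 held 13 and 117, and 14 and 1406. The cycling cluster held 356 and 10277, and 0 and 55. The shallow cluster held 50 and 431, and 5 and 48, a similar ratio in both groups. The part of the mix was not tested.

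At the level of single cells, 54.9%, 55.9% and 60.9% of infarction neutrophil-like cells held both Il1b and Il1rn after thinning to 1000 UMIs, and 45.6%, 44.6% and 50.5% also held Il1r2. In infarction microglia-like cells at this depth, 33.2%, 18.9% and 23.0% held Il1b with neither Il1rn nor Il1r2, against 2.77%, 0.671% and 1.0% with both Il1b and Il1rn. Border macrophage-like cells held Il1b alone of the 3 in 49.1%, 59.3% and 65.2%. Of the neutrophil-like cells, 77.3%, 78.5% and 80.2% held Il1b, and 69.0%, 71.0% and 74.3% held Il1rn. Whether the 2 occur together more often than these shares give was not tested. At this depth a scarce transcript is often missed. Il1rn was held by 13.3% of infarction border macrophage-like cells here and by 45.4% without thinning. In microglia-like cells these shares were 3.30% and 14.9%.

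Il18 differed less within the resident classes than over all cells. Microglia-like cells had 160, 208 and 165 CPM after infarction and 139, 183 and 139 in sham, overlapping ranges (log2 fold change 0.18, adjusted p = 0.296). In border macrophage-like cells the values were 161, 186 and 135 after infarction and 112, 127 and 94.6 in sham (0.59, adjusted p = 0.0198). That call was lost in 5 of 15 alternatives: without infarction 2 (0.45, adjusted p = 0.106), sham 1 (0.60, adjusted p = 0.0567) or sham 3 (0.49, adjusted p = 0.0958), with DESeq2 (0.64, adjusted p = 0.113), and with at most 10% mitochondrial UMIs (0.48, adjusted p = 0.0681). Classes found almost only after infarction differed in their Il18 level. It was 89.3, 118 and 122 CPM in phagocytic macrophage-like cells and 42.8, 70.8 and 74.0 in the unnamed cluster led by Ccl12 and Arg1. In the MHC class II cluster Il18 was 243, 295 and 208 CPM after infarction and 176, 172 and 222 in sham. Neutrophil-like cells had 4.85 to 8.62 after infarction.

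Il33 showed opposite changes in oligodendrocyte precursor-like cells and in microglia-like cells. Precursor-like cells, which divide and give rise to oligodendrocytes, had 2936, 5913 and 1839 Il33 CPM after infarction and 232, 217 and 111 in sham. The lowest infarction library was far above the highest sham library, and the log2 fold change was 4.54 ± 0.54 (adjusted p = 0.00115). It was the only member tested in this class, where 14.1% of 6789 genes were called higher and 13.6% lower, and it was called in all 16 alternatives, with values from 4.10 to 5.07. Microglia-like cells had 64.5, 150 and 114 CPM after infarction and 436, 503 and 449 in sham, again without overlap (-2.10 ± 0.33, adjusted p = 0.00360). The difference between the 2 changes was 6.91 ± 0.50 on the log2 scale (edgeR interaction test, adjusted p = 0.000334, 7.71% of 9778 genes called), in a pair of classes chosen after seeing the data.

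**Figure D4:**
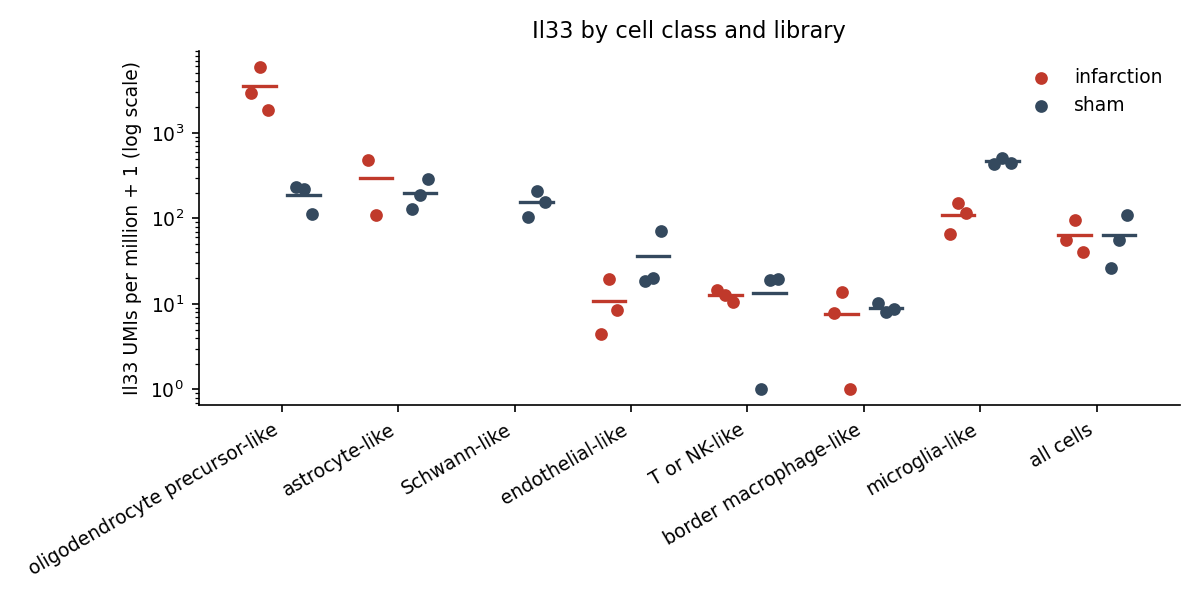
Il33 CPM plus 1, on a log axis, by cell class and library (infarction left in red, sham right in blue, lines are means; libraries with under 5 cells of a class are left out). Il33 lies higher after infarction in oligodendrocyte precursor-like cells and lower in microglia-like cells, and the groups overlap over all cells.

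The microglial difference in Il33 was seen in clusters that both groups shared. In the cluster led by Tmem119 and P2ry12 it was 136, 374 and 332 CPM after infarction (14, 81 and 80 cells) and 452, 503 and 463 in sham. In the shallow cluster it was 88.4, 195 and 131 after infarction and 435, 553 and 495 in sham. In the Ccl4-led cluster it was 68.4, 141 and 113 after infarction and 296, 330 and 290 in sham, the last from only 11, 7 and 86 cells. In the cycling cluster the groups overlapped, with 55.6, 89.4 and 77.4 after infarction and 81.8, 231 and 168 in sham, from 4, 4 and 15 sham cells. After thinning to 2000 UMIs, 21.1% ± 6.07 of microglia-like cells held an Il33 UMI after infarction and 56.01% ± 3.13 in sham (SD, n = 3 each; exact permutation p = 0.1), against 2.31% and 0.933% of T or NK-like cells.

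The precursor name was checked against its markers. The cluster, led by Vgf, Gal, Olig1, Olig2 and C1ql1, held fewer precursor transcripts after infarction. Pdgfra, the PDGF receptor of precursors, had 178 CPM in infarction and 1017 in sham cells. Olig2, a lineage transcription factor, had 295 and 1406, and Sox10 had 193 and 654. Markers of other classes were not all absent. Microglial P2ry12 was at 0 in infarction cells and 1.84 CPM in sham cells, while C1qa, of microglia and macrophages, had 63.9 and 59.5 CPM. The astrocyte gene Aqp4 had 8.05 CPM in infarction and 5.52 in sham cells, and the astrocyte gene Gja1 had 24.2 and 10.4, held by 13.6% and 3.0% of cells. The myelin gene Mbp was held by 40.9% of infarction and 16.7% of sham cells. The part of such RNA in the Il33 result was not tested. At least 4 of the 8 precursor markers found in the files were held by 47.2% of infarction and 90.6% of sham cells. These marker-holding cells contained 84.1% of the infarction Il33 UMIs. In them Il33 was 3241, 6119 and 2602 CPM after infarction and 236, 213 and 182 in sham (35, 23 and 25 cells against 88, 60 and 63), and the log2 fold change was 4.58 (adjusted p = 2.44e-06), an alternative chosen after seeing the data. Infarction cells with fewer markers had 1448, 5039 and 1073 CPM. Sham cells with fewer markers had 0, 556 and 4.12 CPM, from 0, 3 and 1 Il33 UMIs in 3, 5 and 14 cells. The 14 cells of sham 3 were deep, with a median of 17463 UMIs, which lowers the class value of that library.

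Il33 was uneven among precursor-like cells after infarction. More than 10 Il33 UMIs were found in 23 of 56, 24 of 46 and 11 of 74 cells of infarction 1, 2 and 3, and in none of 233 sham cells, whose highest count was 8. Those 58 infarction cells held 97.9% of the infarction Il33 UMIs in this class, had a median of 24020 UMIs in all, and 42 of them held at least 4 precursor markers. The other 118 infarction cells had a median of 3171 UMIs, and the sham cells 6127. The top 10% of cells held 47.7%, 46.6% and 90.4% of the Il33 UMIs in infarction 1, 2 and 3, against 32.6%, 31.6% and 35.3% in sham 1, 2 and 3. Total UMIs per cell moved with the Il33 count, and their part in the result was not tested. The share of cells with any Il33 UMI depended on the depth to which cells were thinned. At 1000 UMIs it was 46.8% ± 21.2 after infarction and 21.2% ± 3.36 in sham (SD, n = 3 each; exact permutation p = 0.1, the smallest possible). At 2000 UMIs it was 55.9% ± 24.4 after infarction and 30.6% ± 6.33 in sham (SD, n = 3 each; exact permutation p = 0.2), and without thinning 56.1% and 60.9%.

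**Figure D5:**
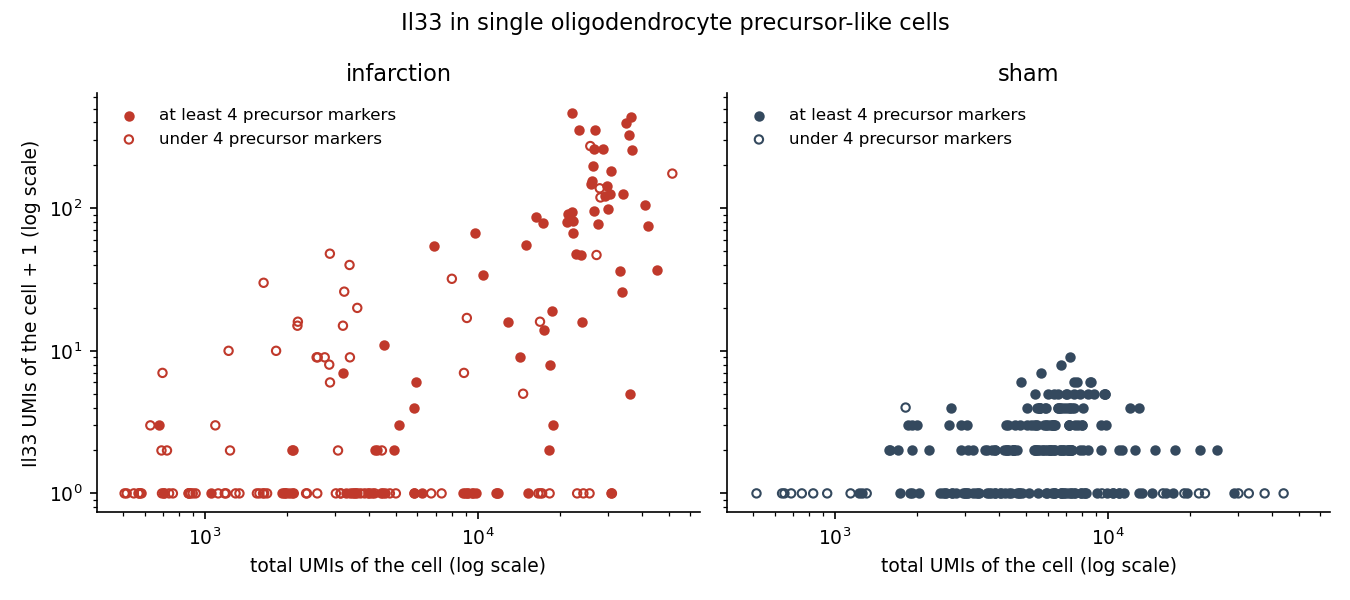
Il33 UMIs plus 1 against total UMIs of single oligodendrocyte precursor-like cells, both on log axes, with infarction at left and sham at right. Filled points hold at least 4 precursor markers; counts reach 468 after infarction and 8 in sham.

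Neutrophil transcripts were also present in infarction precursor-like sums. S100a9 was 620, 0 and 676 CPM in infarction 1, 2 and 3 and 0 in every sham library, while Il33 was highest in infarction 2. Il1b (248, 3.34 and 76.9), Il1rn (138, 15.04 and 53.4) and Il1r2 (165, 3.34 and 127) were high in the same 2 libraries as S100a9. The part of free or admixed neutrophil RNA in these values was not tested. Without cells holding S100a8 or S100a9 the Il33 log2 fold change was 4.49 (adjusted p = 0.00117), and with a stricter doublet score it was 4.52 (adjusted p = 0.00113).

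Elsewhere in the oligodendrocyte lineage few cells and few Il33 UMIs were captured. Mature oligodendrocyte-like cells (Mbp, Mog) numbered 4, 3 and 15 in infarction 1, 2 and 3 (22 in all) and 56 in sham. They had 0 Il33 UMIs in every infarction library, a weak limit at so few cells, against 25.5, 0 and 5.50 CPM in sham. With finer clusters the oligodendrocyte-like class had 0, 26.8 and 103 CPM after infarction, from 0, 3 and 34 UMIs, and 21.4, 0 and 5.25 in sham. An unnamed shallow cluster with oligodendrocyte and neuron markers had 0, 76.0 and 110 after infarction and 0, 29.3 and 0 in sham. Among other glia, astrocyte-like cells had 0, 486 and 108 CPM after infarction, from 0, 25 and 11 UMIs in 3, 28 and 62 cells, and 126, 184 and 285 in sham. Schwann-like cells, of which infarction libraries held 0, 1 and 2, had 101, 209 and 155 in sham. Fibroblast-like cells of infarction 2 had 327 CPM, from 242 UMIs in 27 cells, and those of infarction 1 and 3 had 21.0 and 45.5, against 10.9, 14.8 and 20.9 in sham.

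After infarction the precursor-like cells had the highest mean Il33 level among classes that reached 20 cells in each library, and microglia-like cells were far below them. In sham the microglia-like cells were highest, followed by astrocyte-like, precursor-like and Schwann-like cells, whose ranges overlapped one another. Border macrophage-like cells stayed low in both groups, with 6.72, 12.9 and 0 CPM after infarction and 9.31, 7.001 and 7.67 in sham.

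Among receptors, Il1r1 in sham was found mainly in vascular and barrier cells. In sham, pericyte-like cells held 38.9% of its UMIs, fibroblast-like cells 21.8%, choroid plexus-like cells 15.3%, smooth muscle-like cells 12.2% and endothelial-like cells 10.4%. The first 4 of these classes made up 0.349% of infarction and 67.3% of sham cells. With the smooth muscle-like, pericyte-like and choroid plexus-like cells left out, Il1r1 over the remaining cells had a log2 fold change of -1.99 (adjusted p = 0.0128). The fibroblast-like cells were kept in that fit. They held 37, 35 and 16 Il1r1 UMIs in sham, and numbered 266, 193 and 97 in sham and 14, 27 and 10 after infarction. The fit therefore cannot tell a change within cells from this change in the mix. In endothelial-like cells, the brain cells best known to respond to IL-1 through this receptor, Il1r1 had 13.9, 22.5 and 37.6 CPM after infarction (4, 6 and 15 UMIs) and 16.2, 9.80 and 10.2 in sham, overlapping ranges at this depth. Microglia-like cells held 3 Il1r1 UMIs after infarction and 1 in sham. Precursor-like, border macrophage-like and T or NK-like cells held none in any library.

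Il1r2 was a neutrophil transcript after infarction, with 3189, 2770 and 2882 CPM in neutrophil-like cells, against 845, 615 and 858 in sham ones. In microglia-like cells it had 12.8, 7.81 and 7.73 CPM after infarction and 9.30, 1.34 and 2.01 in sham, overlapping ranges (1.67, adjusted p = 0.0592). This passed in 5 of 18 alternatives, among them without sham 1 (2.43, adjusted p = 0.000668) and without the Ccl4-led cluster (2.21, adjusted p = 0.00264). S100a9 in the same microglial sums was 174, 24.3 and 13.02 after infarction and under 0.5 in each sham library, and the part of neutrophil RNA was not tested; without cells that held S100a8 or S100a9 the value was 1.19 (adjusted p = 0.221). Il1rap had 50.7, 29.3 and 38.8 CPM in neutrophil-like cells after infarction, and 0, 10.1 and 22.0 in sham ones from at most 1 UMI a library. In precursor-like cells it had 11.98, 10.03 and 7.85 after infarction and 12.3, 6.66 and 29.5 in sham, overlapping ranges on 5 to 18 UMIs.

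Il1rl1, the IL-33 receptor gene, fell in microglia-like cells, the class that held most of it. It had 1.35, 1.86 and 1.48 CPM after infarction (19, 24 and 14 UMIs) and 2.32, 5.21 and 3.92 in sham (5, 31 and 39 UMIs), with no overlap (-1.39, adjusted p = 0.00345). T or NK-like cells had 2.74, 5.93 and 4.76 after infarction and 6.22, 6.78 and 2.34 in sham, from at most 6 UMIs a library, and precursor-like and endothelial-like cells had none.

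T or NK-like and endothelial-like cells gave no member call. In T or NK-like cells no member passed the filter on low values, where 4.83% of 4681 genes were called higher and 2.69% lower. In endothelial-like cells 2 members were tested, Il1b (4.65, adjusted p = 0.0881) and Il33 (-1.57, adjusted p = 0.388), where 6.64% of 6043 genes were called higher and 6.78% lower. The 2 tested classes with the most cells were microglia-like and T or NK-like, and in their comparison no member's change differed by the adjusted p, where 17.4% of 8507 genes did. At an unadjusted p under 0.05 by edgeR, 1 member differed, Il33 (-1.95 ± 0.79). The share of all genes at that threshold was not counted.

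The change of Il1rn was smaller in border macrophage-like than in microglia-like cells, by -2.49 on the log2 scale (edgeR interaction test, adjusted p = 5.62e-06, 14.4% of 8341 genes called). Il33 (2.25, adjusted p = 0.00575) and Il18 (0.58, adjusted p = 0.0142) differed in the other direction. The Il33 call was lost without infarction 1 (1.999, adjusted p = 0.0636) or infarction 2 (1.75, adjusted p = 0.153). The Il18 call was lost without infarction 1 (0.54, adjusted p = 0.0541), infarction 2 (0.50, adjusted p = 0.0712), sham 2 (0.56, adjusted p = 0.0697) or sham 3 (0.48, adjusted p = 0.119). The Il1b difference was 2.43 (adjusted p = 0.0922). This pair of classes was chosen after seeing the data.

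Other genes of the pathway were counted from 4 lists. Among 12 other IL-1 family ligands, receptors and decoys, 6 were tested over all cells, 3 rose and 1 fell, where 33.2% of all genes tested rose and 38.1% fell. Il36b, an IL-36 agonist, rose by 4.92 on the log2 scale (adjusted p = 0.000138). The IL-18 receptor chain genes Il18rap (2.83) and Il18r1 (1.81) rose, and Il1rl2, the IL-36 receptor gene, was lower (-1.34, adjusted p = 0.0448). In microglia-like cells 3 of the list were tested and Il18rap rose (1.84 ± 0.44, adjusted p = 0.00407).

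Of 12 genes for processing and release, 11 were tested over all cells and 10 rose, with a median of 2.33, where 33.2% of all genes tested rose. They included the inflammasome genes Aim2 (2.95), Casp1 (2.57), Pycard (2.41) and Nlrp1a (1.26). Within microglia-like cells 2 of 9 rose, 3 fell and the median was -0.17 beside -0.02 for all genes, shares near the 32.3% higher and 31.6% lower among all genes tested. Casp1 (0.31, adjusted p = 0.00815) and Aim2 (1.003) rose there, and Casp4 (-0.80) and Nlrp1a (-0.83, adjusted p = 0.000207) fell. In border macrophage-like cells Nlrp3 rose (1.58, adjusted p = 0.000411) and Nlrp1a fell (-0.88, adjusted p = 0.0420).

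Of 14 genes of receptor-proximal signalling, 8 of 13 tested rose and 2 fell over all cells, led by Irak3 (2.61), an inhibitory kinase of the pathway, Myd88 (1.78), the adaptor, Irak1 (1.17) and Irak2 (3.33). Of all genes tested over all cells, 33.2% rose and 38.1% fell. In microglia-like cells 2 of 10 rose and 6 fell, with a median of -0.38, where 32.3% of all genes tested rose and 31.6% fell. Myd88 (-0.92, adjusted p = 2.03e-05), Ikbkb (-0.46) and Tab2 (-0.41) fell there and Irak1 rose (1.03). Myd88 thus differed in sign between all cells and microglia-like cells.

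Of 16 genes known to be induced by IL-1 signalling, 11 of 15 tested rose over all cells and 2 fell, with a median of 2.73. Of all genes tested there, 33.2% rose and 38.1% fell. Ccl2, a monocyte chemokine, rose by 8.76 on the log2 scale, Cxcl1, a neutrophil chemokine, by 5.52, Nfkbiz by 3.64 and Zc3h12a, a feedback RNase, by 3.21. In microglia-like cells 9 of 14 rose and none fell, with a median of 1.53, where 32.3% of all genes tested rose and 31.6% fell. Ptgs2, the inducible cyclooxygenase, had the smallest p there (5.67 ± 0.44, adjusted p = 2.90e-05). In border macrophage-like cells 9 of 11 rose and 2 fell, with a median of 2.50, led by Icam1 (2.61, adjusted p = 4.28e-10) and Nfkbiz (2.50). Of all genes tested in that class, 13.1% rose and 11.5% fell. In endothelial-like cells, which held Il1r1, 5 of 12 rose and none fell, with a median of 1.77, where 6.64% of all genes tested rose; Lcn2 (3.28, adjusted p = 1.47e-05), Ccl2, whose sham UMIs were too few for a fold, Nfkbiz (3.47) and Zc3h12a (1.76) had the smallest p. Myeloid transcripts moved with the infarction libraries in these sums: S100a9 had 6.97, 421 and 47.6 CPM after infarction and 0, 0.933 and 2.92 in sham, and their part in these counts was not tested. In precursor-like cells 2 of 5 rose, Nfkbia (2.57) and Ccl2, which had no sham UMI there, and Vcam1 fell (-2.65, adjusted p = 0.00296). Of all genes tested in precursor-like cells, 14.1% rose and 13.6% fell. The listed genes also answer to other signals, and no cause was tested.

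Likeness to each member was described over 82 sums of 1 class or cluster in 1 library, 21 classes or clusters in all, as Pearson's r of log2 CPM with 5 added. The sums share libraries, so no p is given. The gene most like Il1b was Nlrp3, the inflammasome sensor that acts on its product (r = 0.948), followed by Alox5ap and Clec5a. Il1rn was most like Lilrb4 (0.953), Trem1 and Trem3, all genes of myeloid receptors. Il1r2 was most like Fcar (0.888) and S100a9, and Il18 most like Cd86 (0.893), P2ry6 and Irf5. Il1r1 was most like Akr1c14 (0.888) and the endothelial gene Emcn (0.844). Il1a was most like Tnf (0.709), and Il1rap most like Dgat2 (0.749). Il33 had no near match, with Epdr1 at 0.750 and Lrp4 at 0.747.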

How the data were processed

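Deposited matrices of raw UMI counts were used for all 6 droplet libraries. The authors made them with Cell Ranger 3.1.0, and CASAVA 1.8 and Seurat 2.3.4 are also listed, per the submitters' processing notes. The genome build is not given in the sources used here. Groups came from the group label and replicate numbers from the titles. The members, gene lists and tests were chosen with earlier results of these data known.

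Barcodes with at least 500 UMIs, 200 genes and at most 20% mitochondrial UMIs were kept (38685), and cells with a Scrublet score above 0.25 were removed (1.74% to 2.79% per library), because the automatic threshold marked 0% of cells in 2 infarction libraries. Clusters were built with scanpy 1.11.5 (2000 variable genes without the members, 30 components, 15 neighbours, Leiden resolution 1.0, no correction between libraries), giving 31 clusters. A cluster was named from at least 3 detected markers of a class; 4 clusters stayed unnamed. Differences in class shares from other work may come from these rebuilt names.

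UMIs were summed per library and class, in all cells and in the 5 classes that reached 20 cells in each library, and tested with edgeR 4.0.16 (quasi-likelihood, TMM, filterByExpr), with Benjamini-Hochberg adjustment over all genes tested. In data simulated from the all-cell sums, 98.5% of 200 genes changed by 2 log2 units were recovered, and from the precursor-like sums 87%. Total UMIs per library ranged between 50976410 and 62875211 in kept cells. Intervals and limits from a count of 0 cover counting error only. Named genes were the 9 members, up to 4 called genes per list with the smallest p, and for members with at least 200 UMIs the 3 most alike genes; S100a9 and other markers are named as checks. Alternatives were RLE factors, library totals alone, DESeq2 1.42.0, no filter on low counts, each library left out, a replicate block, stricter mitochondrial and doublet limits, finer clusters, other thinning depths and another pseudocount in the ratio.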

Additional observations from a re-analysis of the deposited data

Results flagged for a closer look

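The effect of infarction on Il33 differed between oligodendrocyte precursor-like and microglia-like cells by 6.91 on the log2 scale, a difference that passed edgeR's interaction test in these libraries and without each of them. The change of Il1rn in border macrophage-like cells minus that in microglia-like cells was -2.49, with Il1rn higher after infarction in both classes. The same subtraction gave 2.25 for Il33, which fell in microglia-like cells and overlapped between groups in border macrophage-like cells. For Il18 it gave 0.58. Both pairs of classes were chosen after seeing the data. Il1a also differed between these 2 classes by the adjusted p (0.00101), but sham border macrophage-like cells held 0 Il1a UMIs, so its fitted size is not given.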

How the results depend on the processing

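Over all cells 7 members were called in 13 of 14 alternatives, and 8 in the one that left out smooth muscle-like, pericyte-like and choroid plexus-like cells. Il33 turned to -0.22 with at most 10% mitochondrial UMIs and to -1.03 once choroid plexus-like, pericyte-like and smooth muscle-like cells were left out (adjusted p = 0.0630 by edgeR). Il1rl1 turned to -0.45 with library totals alone, -0.83 with at most 10% mitochondrial UMIs and -1.58 without those 3 classes (adjusted p = 0.0180), and ranged from -0.34 to 0.36 when libraries were left out. Library totals alone moved the median of all genes from -0.13 to -0.60 on the log2 scale.

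Within classes, DESeq2 called 2 members in T or NK-like cells, 2 in endothelial-like, 5 in microglia-like and 4 in precursor-like cells. Over all genes it called 147 higher and 79 lower of 13088 in T or NK-like cells, and 437 and 291 of 14029 in endothelial-like cells. In microglia-like cells it called 3189 and 2804 of 16177, and in precursor-like cells 983 and 544 of 14434. Without the filter on low counts, edgeR called 2 in T or NK-like, 3 in endothelial-like and 5 in border macrophage-like cells. In the same order, edgeR called 353 genes higher and 238 lower of 13088, 663 and 678 of 14029, and 970 and 838 of 13200. Microglia-like cells gave 5 calls without the Ccl4-led cluster, where 3229 of 9972 genes were called higher and 3123 lower. Leaving out 1 library gave 0 to 1 calls in T or NK-like, 1 to 2 in border macrophage-like and 0 to 2 in endothelial-like cells. It gave 3 to 5 in microglia-like and 1 to 4 in precursor-like cells. The 4 calls came without infarction 2, where 851 of 7503 genes were called higher and 444 lower. Calls of a difference between classes ranged from 0 to 1 for microglia-like against T or NK-like cells. They ranged from 1 to 3 for precursor-like against microglia-like and 2 to 5 for border macrophage-like against microglia-like cells. The shares over all genes were not counted in those fits. Il1rap in microglia-like cells ranged from -0.24 to 0.59. The log2 Il1rn to Il1b ratio ranged from -0.75 to 0.75 in T or NK-like, -0.55 to 0.75 in endothelial-like and -0.15 to 1.14 in precursor-like cells. The causes of these shifts were not tested.

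The share of precursor-like cells with an Il33 UMI differed by -4.78 percentage points without thinning. At finer clusters neutrophil-like cells held 38.0% of Il1b, 32.5% of Il1rn and 80.6% of Il1r2 UMIs after infarction, and microglia-like cells 56.6% of Il1rl1 UMIs. With the replicate number as a block, microglia-like cells gave 6 calls, and no other class count moved by over 1.5 times. In that microglial fit 3366 of 10452 genes were called higher and 3258 lower. Same-numbered libraries correlated by 0.02, -0.06 and 0.11 over all cells and by 0.12, 0.30 and 0.52 in precursor-like cells, where infarction 1 was closer to sham 2 (0.25) than to sham 1, so no pairing was assumed; the block gave 4.42 for Il33 there. Depth limits Il1r1, Il1rl1 and Il1rap within single classes.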
